A study of Mus musculus with 20 samples.

Results

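The Cyp4 omega-hydroxylases and fatty aldehyde dehydrogenase, the enzymes that open the omega-oxidation of fatty acids, were followed in mouse liver after 4 weeks of a low-fat or a high-fat diet. The set was defined by 10 gene symbols, Cyp4a10, Cyp4a14, Cyp4a12a, Cyp4a12b, Cyp4a31, Cyp4f13, Cyp4f14, Cyp4f15, Cyp4v3 and Aldh3a2, and every probe set annotated to exactly 1 of these symbols was taken. This gave 10 probe sets for 8 genes, of 45037 probe sets that are not controls. Cyp4a31 and Cyp4v3 each had a pair of probe sets, and the other 6 genes had 1 each. Cyp4a10 and Cyp4a12b had none: 1 probe set annotated to Cyp4a31 and Cyp4a10 together was left out, so neither gene has a value here. Whether the Cyp4a31 probe sets also detect Cyp4a10 cannot be told from the files.

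The animals were male C57BL/6J mice, an inbred strain, bought at 3 weeks of age and labelled as 8 weeks old. All took a low-fat diet for 1 week of acclimation, then either that diet, with 10% of energy from fat (10 mice), or a diet with 45% of energy from fat (10 mice) for 4 weeks. Livers were removed on day 30 after a fast of 16 h, which both groups shared. RNA of each liver (200 ng) went onto 1 Affymetrix array, so each array is 1 mouse, and the study's groups on a high-fat diet with an additive were not analysed here.

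In omega-oxidation a Cyp4 enzyme, a cytochrome P450 of the endoplasmic reticulum, puts a hydroxyl group on the last carbon of a fatty acid. Alcohol dehydrogenases and then fatty aldehyde dehydrogenase, encoded by Aldh3a2, turn that end into a second carboxyl group, and the dicarboxylic acid is shortened in peroxisomes. In rodent liver the Cyp4a genes are classic targets of PPAR-alpha, the nuclear receptor that senses fatty acids in fasting, whereas Cyp4f enzymes are also known for the omega-hydroxylation of leukotriene B4 and arachidonic acid.

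The deposited values are log2-like scores that started at 5.18, reached 15 and varied very little between mice. The SD over mice was below 0.001 in 98.3% of probe sets, with a median of 1.15e-05. A difference of scores is therefore no fold change. Sizes are given as standardised differences, high-fat minus low-fat mean over the pooled SD within a diet, with a 95% interval, and levels of different members are not compared. As a rough check of the labelled tissue, the 8 hepatocyte markers, among them albumin, ranked at the 99.1 percentile of mean score or above; such a rank also depends on how well each probe binds. In whole liver, fewer cells of a type and less RNA per cell cannot be told apart.

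Sequences upstream of the transcription start were at hand for 5 of the 10 genes, and those of the Cyp4f genes and Aldh3a2 are shown because their probe sets gave the smallest p-values and the peroxisomal covariation described below. The window of Cyp4v3, not shown, held no match to any string searched, and the fourth Cyp4f14 start had CCAAT on the plus strand, 24 bases before it, and no GGATTGG. Each line holds the 250 bases before the start (RefSeq, build GRCm38.p6), 5′ to 3′ on the gene's strand, with CCAAT on either strand in capitals. Cyp4f13 is chr17:32947362-32947611 on the minus strand, the first of 4 Cyp4f14 starts is chr17:32917357-32917606 on the minus strand, Cyp4f15 is chr17:32685409-32685658 on the plus strand, and Aldh3a2 is chr11:61267187-61267436 on the minus strand.
Cyp4f13: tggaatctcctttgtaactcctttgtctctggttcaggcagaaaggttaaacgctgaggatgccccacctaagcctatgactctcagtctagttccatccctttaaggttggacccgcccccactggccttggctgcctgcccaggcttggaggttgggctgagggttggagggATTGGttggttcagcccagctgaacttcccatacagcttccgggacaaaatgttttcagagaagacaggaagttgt
Cyp4f14: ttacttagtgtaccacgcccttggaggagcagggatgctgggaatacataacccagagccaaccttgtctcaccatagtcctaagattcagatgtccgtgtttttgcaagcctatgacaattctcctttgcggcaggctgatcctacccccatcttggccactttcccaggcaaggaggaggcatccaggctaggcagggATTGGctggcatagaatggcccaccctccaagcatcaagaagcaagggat
Cyp4f15: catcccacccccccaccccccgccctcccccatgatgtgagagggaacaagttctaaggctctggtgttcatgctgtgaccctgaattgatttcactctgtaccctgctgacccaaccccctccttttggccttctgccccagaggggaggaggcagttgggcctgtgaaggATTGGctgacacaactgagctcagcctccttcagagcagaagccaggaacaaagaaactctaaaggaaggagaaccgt
Aldh3a2: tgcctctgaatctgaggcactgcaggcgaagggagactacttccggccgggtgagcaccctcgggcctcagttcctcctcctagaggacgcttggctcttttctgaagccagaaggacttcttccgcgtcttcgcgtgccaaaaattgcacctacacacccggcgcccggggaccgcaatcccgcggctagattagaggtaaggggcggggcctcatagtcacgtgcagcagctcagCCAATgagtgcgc
The CCAAT match lay on the minus strand, 76, 50 and 78 bases before the start, in Cyp4f13, Cyp4f14 and Cyp4f15. In these 3 windows it overlapped GGATTGG, a string searched on both strands after the sequences were seen, which 4.22% of 27025 RefSeq promoters of the same length hold. In Aldh3a2 the match was on the plus strand, 13 bases before the start. CCAAT itself is in 34.5% of those promoters. The nuclear receptor letters AGGTCA (in 13.8% of promoters), a direct repeat of these letters with 1 base between (0.0370%) and CAAAGTCCA (0.381%), each searched on both strands, were in none of these 4 windows. These matches are descriptions of letters, not of binding. In the same assembly Cyp4f14 and Cyp4f13 are direct neighbours, with 0 genes between them, and 12 genes lie between Cyp4f15 and Cyp4f14.

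The diet comparison asked whether omega-hydroxylase RNA differed between livers of mice on the low-fat and the high-fat diet. Of the 10 probe sets, 0 passed limma's moderated test at an adjusted p of 0.05 over all probe sets, a threshold that 2.32% of all probe sets passed, 1.11% as higher and 1.20% as lower. At an unadjusted p under 0.05 there were 3 of 10, Cyp4f13, Cyp4f14 and Cyp4f15, where 15.1% of all probe sets passed, 7.86% as higher and 7.28% as lower. The exact rank sum test gave 3 at an unadjusted p under 0.05, as it did for 13.5% of all probe sets, and 0 after adjustment. The high-fat mean was above the low-fat mean for 6 of 10 probe sets and below it for 4, against 52.2% above for all probe sets. The median standardised difference was 0.36, beside 0.04 for all probe sets. The same fit was also run on simulated independent normal noise with the mean and SD of each probe set. It found 0% of shifts of 1 SD, 32% of 2 SD and 90% of 3 SD. Far fewer probe sets were shifted there than the 2.32% called here, which makes the adjusted threshold stricter. These shares therefore need not hold for the real arrays.

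**Figure D1:**
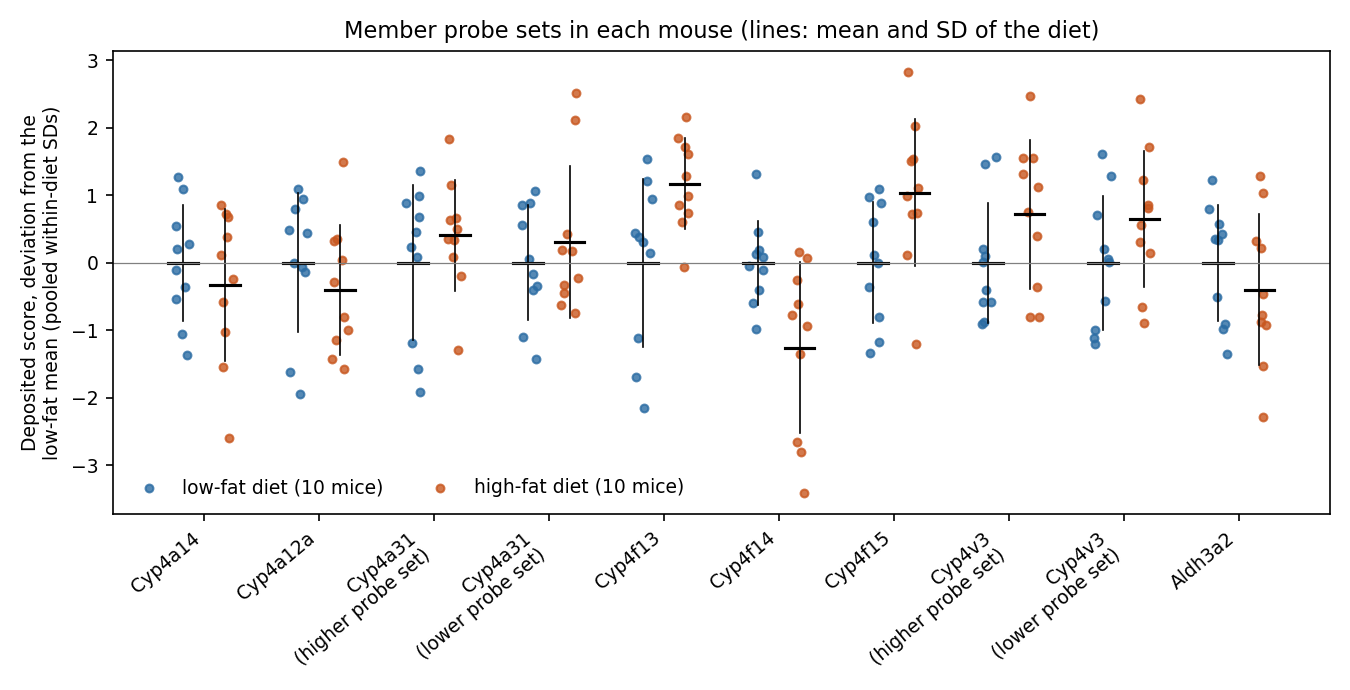
Score of each probe set in every mouse, as a standardised deviation from the low-fat mean (vertical axis, in pooled SDs), for 10 low-fat and 10 high-fat mice, with lines for each diet's mean and SD. The diets overlap for every probe set, and 4 high-fat mice lie below all low-fat mice for Cyp4f14.

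Among the Cyp4a genes, which hydroxylate medium and long fatty acids, no probe set passed the test. Cyp4a14 scores ran from 13.28224 to 13.28284 with a median of 13.28256 in low-fat mice, and from 13.28196 to 13.28275 with a median of 13.28254 in high-fat mice. Of the high-fat mice 2 lay below every low-fat mouse and of the low-fat mice 2 lay above every high-fat mouse, with the others overlapping, and the high-fat mouse was the higher in 44 of the 100 pairs of mice. The standardised difference was -0.32 (95% interval -1.2 to 0.56, n = 10 per diet, limma adjusted p = 0.79).

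Cyp4a12a, an arachidonic acid omega-hydroxylase best known from male mice, had scores of 11.94072 to 11.94140 in low-fat mice with a median of 11.94121. In high-fat mice they were 11.94080 to 11.94150 with a median of 11.94103. High-fat mice were the higher in 37 of 100 pairs, with a standardised difference of -0.40 (interval -1.28 to 0.49, limma adjusted p = 0.728).

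The higher probe set of Cyp4a31 ranged from 9.8996 to 9.9092 (median 9.9062) in low-fat and from 9.9014 to 9.9106 (median 9.9065) in high-fat mice. Its standardised difference was 0.41 (interval -0.48 to 1.29, limma adjusted p = 0.721). The lower one ranged from 7.7173 to 7.7199 (median 7.7187) in low-fat and from 7.7180 to 7.7214 (median 7.7187) in high-fat mice, with a standardised difference of 0.31 (interval -0.58 to 1.18, adjusted p = 0.804). Both probe sets thus had nearly the same median in the 2 diets. Over mice they followed each other, with r = 0.79 on the low-fat and 0.84 on the high-fat diet (n = 10 each, permutation p = 0.00804 and 0.00051; rho 0.73 and 0.9; r without the 2 farthest mice 0.85 and 0.86).

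The 3 Cyp4f genes, whose products hydroxylate leukotrienes and other eicosanoids, gave the 3 lowest p-values of the set, and they pointed in different directions. Cyp4f14 scores were 9.65237 to 9.65300 (median 9.65264) in low-fat mice and 9.65170 to 9.65268 (median 9.65240) in high-fat mice. Of the high-fat mice, 4 lay below the lowest low-fat mouse, and the high-fat mouse was the higher in 18 of 100 pairs. The standardised difference was -1.26 (interval -2.21 to -0.28), with limma p = 0.00986 before and 0.152 after adjustment. Under quantile normalisation it was -0.48 (adjusted p = 0.509). Under median centring it was -1.56 and passed with an adjusted p of 0.017, where 38220 of 45037 probe sets were called lower.

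Cyp4f13 scores were 8.656022 to 8.656079 (median 8.656061) on the low-fat and 8.656054 to 8.656089 (median 8.656073) on the high-fat diet. Of the high-fat mice, 9 of 10 were above the low-fat median, and high-fat was the higher in 81 of 100 pairs. Its standardised difference of 1.17 (interval 0.21 to 2.12, limma p = 0.0152, adjusted p = 0.189) turned to -0.79 under quantile normalisation and to -1.04 under median centring.

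Cyp4f15 scores were 10.542311 to 10.542352 (median 10.542335) on the low-fat and 10.542313 to 10.542382 (median 10.542352) on the high-fat diet. Of the high-fat mice, 5 were above every low-fat mouse, and high-fat was the higher in 80 of 100 pairs. The standardised difference was 1.04 (interval 0.09 to 1.97, limma p = 0.0289, adjusted p = 0.256). It was 0.04 (limma p = 0.928) under quantile normalisation and turned to -0.99 under median centring. The unadjusted p was under 0.05 in 15 of 20 fits that left out 1 mouse, and 0.0919 with the poly-A covariate.

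Cyp4v3, the mouse counterpart of a fatty acid omega-hydroxylase mutated in a human retinal dystrophy, had scores of 12.305924 to 12.306002 (median 12.305947) on the low-fat diet in its higher probe set. On the high-fat diet they were 12.305928 to 12.306030 (median 12.305982). The standardised difference was 0.72 (interval -0.2 to 1.62, limma adjusted p = 0.473) and turned to -0.80 under median centring. The lower probe set had scores of 10.68422 to 10.68454 (median 10.68436) on the low-fat and 10.68425 to 10.68463 (median 10.68443) on the high-fat diet. Its difference was 0.65 (interval -0.26 to 1.54, adjusted p = 0.525), with 0.01 under median centring and 0.30 under quantile normalisation. In both probe sets the diets overlapped over most of their range, and over mice the probe sets correlated with r = 0.9 and 0.95 (n = 10 each, permutation p = 0.00049 and 3e-05; rho 0.85 and 0.9; r without the 2 farthest mice 0.77 and 0.89).

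Aldh3a2, the fatty aldehyde dehydrogenase that completes the omega end, had scores of 10.70454 to 10.70585 (median 10.70541) on the low-fat and 10.70406 to 10.70588 (median 10.70491) on the high-fat diet. The groups overlapped, with high-fat the higher in 39 of 100 pairs. The standardised difference was -0.40 (interval -1.28 to 0.49, limma adjusted p = 0.731). The poly-A spike-in controls, RNAs added before labelling, had a mean standardised score of 0.06 to 0.83 in the low-fat arrays and -2.03 to 1.01 in the high-fat arrays, where replicates 1, 4, 5 and 7 lay between -2.03 and -1.31. On the high-fat diet Aldh3a2 correlated with this measure at r = -0.55, and with it as a covariate the difference of Aldh3a2 was -0.83 (adjusted p = 0.484).

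**Figure D2:**
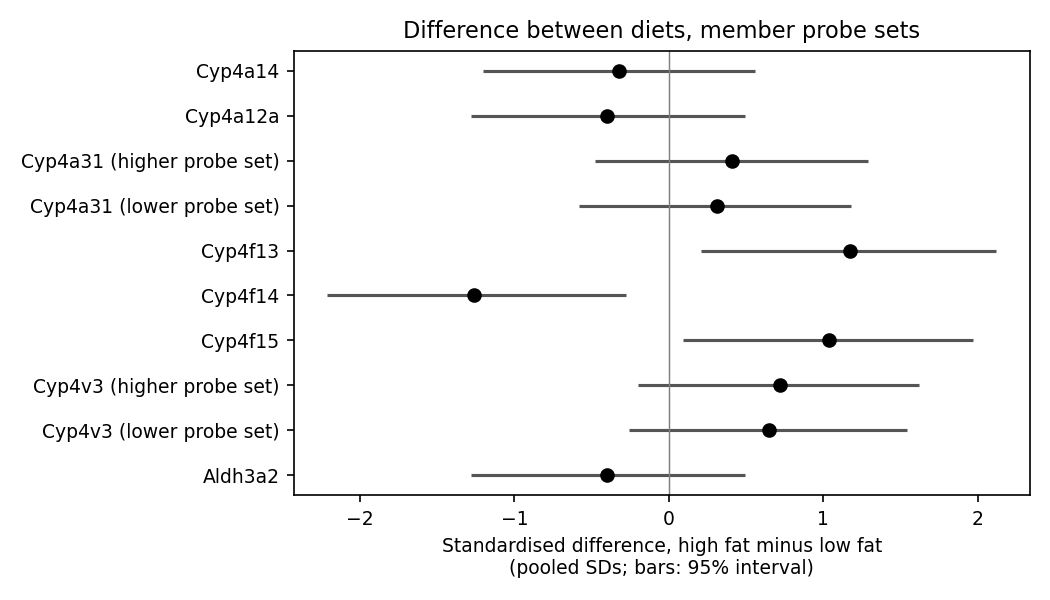
Standardised difference, high-fat minus low-fat (horizontal axis, in pooled SDs), of each probe set with its 95% interval, 10 mice per diet. The interval leaves out 0 for Cyp4f13, Cyp4f14 and Cyp4f15, and 0 of 10 passed the adjusted threshold.

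The rest of the pathway was described with 5 lists, each gene by its probe set with the highest mean. By this measure 3.00% of 18193 genes passed limma's adjusted threshold, 1.49% as higher and 1.51% as lower, and 17.0% had an unadjusted p under 0.05. Of the other Cyp4 genes 6 of 13 were measured, 0 passed and 1 had an unadjusted p under 0.05; the median difference was -0.33, and Cyp4x1, a P450 with no settled role, had the smallest adjusted p, 0.33. Of the genes that supply P450 enzymes with electrons and heme, 10 of 11 were measured, 0 passed and 3 had an unadjusted p under 0.05, with a median of 0.13. Cyb5r3, cytochrome b5 reductase, came closest, with a difference of -1.42 (interval -2.39 to -0.41, adjusted p = 0.0999).

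All 17 other alcohol and aldehyde dehydrogenases were measured, 0 passed, 5 had an unadjusted p under 0.05 and the median was -0.03. Aldh2, the mitochondrial acetaldehyde dehydrogenase, was at -1.45 (interval -2.43 to -0.44, adjusted p = 0.127). Of the peroxisomal genes for shortening dicarboxylic acids, 14 of 17 were measured, 0 passed, 3 had an unadjusted p under 0.05 and the median was 0.17. Abcd2, a peroxisomal fatty acyl-CoA transporter, was at -1.40 (interval -2.37 to -0.39, adjusted p = 0.106). Of PPAR-alpha, its partners and its other targets, 20 of 22 were measured, 0 passed, 5 had an unadjusted p under 0.05 and the median was -0.01. Nr1i3, the nuclear receptor CAR, was at 1.25 (interval 0.27 to 2.2, adjusted p = 0.154). The exact rank sum test called 1 gene over these 5 lists, Slc27a2, and the median over all genes was 0.04.

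Within each diet, Cyp4a14 and Cyp4f14 ran opposite to each other from mouse to mouse. On the low-fat diet r was -0.79 and rho -0.81 (n = 10, permutation p = 0.00586 and 0.00705, adjusted over 56 tests 0.0602 and 0.0516). On the high-fat diet r was -0.82 and rho -0.94 (n = 10, permutation p = 0.00414 and 0.00022, adjusted 0.0602 and 0.00616). Only the rank correlation on the high-fat diet passed the adjusted threshold. The low-fat mouse with the lowest Cyp4a14 (replicate 9) had the highest Cyp4f14, and the same held for high-fat replicate 5. High-fat replicate 10 had the highest Cyp4a14 and the lowest Cyp4f14 of its group.

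Without the 2 mice farthest from the Cyp4a14 median, r was -0.67 on the low-fat and -0.86 on the high-fat diet. The difference of r between the diets was -0.03 (permutation p = 0.773, adjusted over 28 pairs 0.866, n = 10 per diet). The mean of the 2 rho values was -0.87, and of 18112 other genes 0 had a lower mean rho with Cyp4f14; from the side of Cyp4a14, 23 genes were lower than Cyp4f14. After median centring the mean was -0.71 with 7 genes lower, and neither diet passed (rho -0.66 and -0.76, adjusted permutation p = 0.201 and 0.118, n = 10 each). Under quantile normalisation Cyp4a14 had the same value in every array, so no correlation with Cyp4f14 could be taken there.

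**Figure D3:**
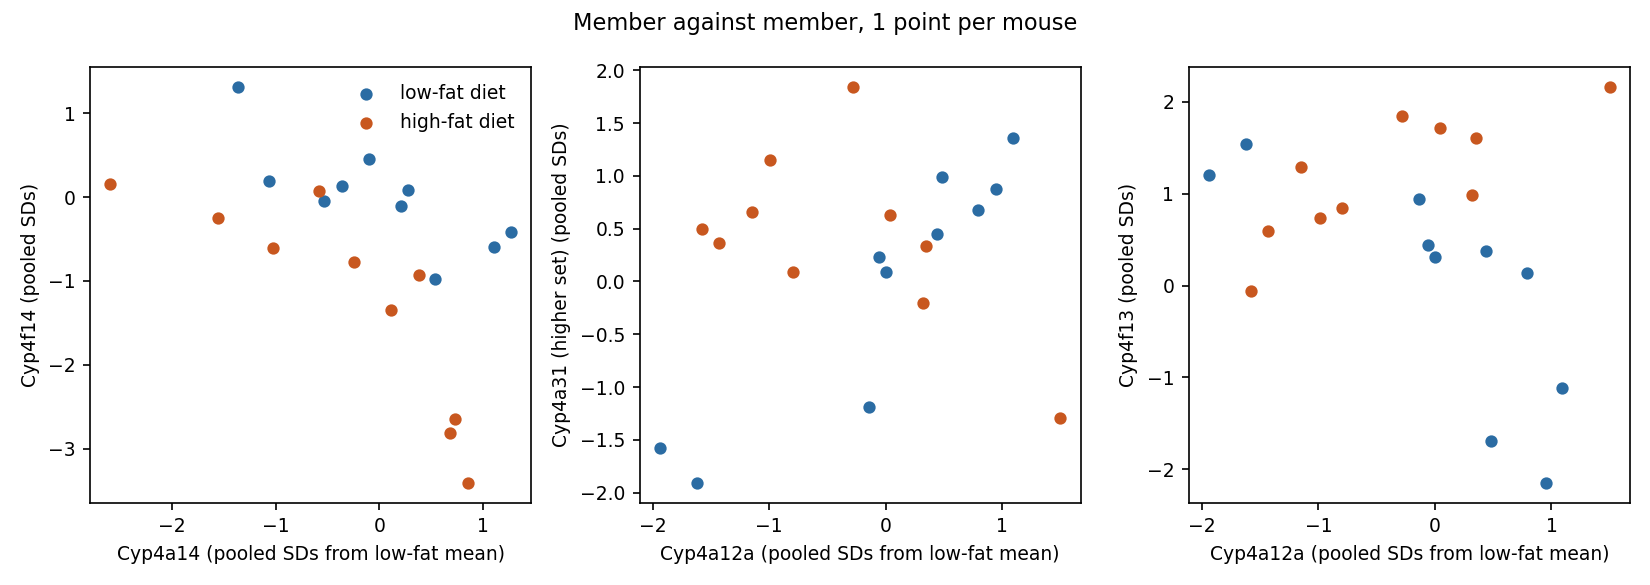
Scores of paired genes in each mouse (both axes as deviations from the low-fat mean in pooled SDs within a diet), low-fat and high-fat mice marked apart, 10 each. Cyp4a14 and Cyp4f14 slope down in both diets, with r of -0.79 and -0.82. Cyp4a12a slopes in opposite ways in the 2 diets with Cyp4a31 (higher probe set only) and, as deposited but not after median centring, with Cyp4f13.

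Array-wide measures moved with some of these genes. Low-fat replicates 6 and 9 had an array median of 6.56720, above the 6.56702 to 6.56711 of the other 8 low-fat mice. In the high-fat arrays the median was 6.56705 in replicate 8 and 6.56714 to 6.56719 in all others. Apart from that replicate, every high-fat array thus lay above those 8 low-fat arrays. Array level and diet therefore cannot be told apart here. On the low-fat diet the array median correlated with Cyp4a14 at r = -0.64, Cyp4a12a at -0.77, Cyp4a31 at -0.62 (higher probe set; -0.22 for the lower), Aldh3a2 at -0.67 and Cyp4f14 at 0.59. On the high-fat diet the values were -0.16 for Cyp4a14, 0.19 for Cyp4a12a, -0.05 for Cyp4a31, -0.29 for Aldh3a2 and -0.0 for Cyp4f14. Without these 2 mice, Cyp4a14 and Cyp4f14 had an r of -0.65 and a rho of -0.69 over 8 low-fat mice. Over the same 8 mice some other low-fat correlations were smaller in size and some were larger. That of Cyp4a12a with Aldh3a2 went from 0.66 to 0.02, that of Cyp4a31 with Aldh3a2 from 0.56 to 0.01, and that of Cyp4a14 with Cyp4a12a from 0.74 to 0.28. That of Cyp4a12a with Cyp4f14 went from -0.53 to 0.07, and that of Cyp4a14 with Cyp4a31 from 0.78 to 0.46 (rho 0.24). Cyp4a12a with Cyp4a31 stood at 0.83 without these mice. Larger in size were Cyp4a14 with Cyp4f15, from 0.24 to 0.66, and Cyp4a31 with Cyp4v3, from -0.68 to -0.92. Cyp4a12a with Cyp4v3 went from -0.44 to -0.73.

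Of the 28 pairs of the 8 genes in 2 diets, 17 of 56 correlations had an unadjusted permutation p under 0.05, 1 passed after adjustment by r and 4 by rho. Strong correlations were also common array-wide. Depending on the member, 2.0% to 16.9% of 18112 genes had an r beyond 0.7 in size on the low-fat diet. On the high-fat diet the share was 2.95% to 8.94%. That limit is not the p of 0.05, so these shares and the 17 of 56 are not directly comparable. The 1 that passed by r was Cyp4a12a with Cyp4a31 (higher probe set) on the low-fat diet, at r = 0.92 and rho = 0.94 (n = 10, permutation p = 7e-05 and 0.00018, adjusted 0.00392 and 0.00616). The 2 mice farthest from the Cyp4a12a median were low-fat replicates 6 and 9, so r without them is the 0.83 already given. On the high-fat diet the same pair had r = -0.56 (n = 10, permutation p = 0.0924, adjusted 0.235), and -0.17 without 2 mice. Cyp4a14 and Cyp4a31 had positive correlations in both diets that did not pass after adjustment, with r = 0.78 and 0.72 and rho = 0.61 and 0.79 (n = 10 each, adjusted permutation p of r 0.0602 and 0.0931, of rho 0.221 and 0.0516).

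Cyp4f13 ran opposite to Cyp4a12a and Cyp4a31 on the low-fat diet, with rho = -0.92 for each (n = 10, permutation p = 0.00052 and 0.00057, adjusted 0.00798 for both). On the high-fat diet it ran with Cyp4a12a at r = 0.80 and rho = 0.79 (n = 10, permutation p = 0.00505 and 0.00916, adjusted 0.0602 and 0.0516). After median centring its r with Cyp4a12a was 0.69 on the low-fat and 0.20 on the high-fat diet. The low-fat array medians, 6.56702 to 6.56720, spanned more than the Cyp4f13 scores of that diet, 8.656022 to 8.656079. Cyp4f13 after centring thus largely carries the array median, which cannot decide whether the opposite signs hold. With Cyp4a31 on the low-fat diet, r was -0.83 as deposited, 0.41 (rho 0.07) after median centring and -0.0 after quantile normalisation, and neither rescaled value passed. With Cyp4a31 its r on the high-fat diet was -0.16. Cyp4f14 and Cyp4v3 had r = 0.5 and 0.74 in the low-fat and high-fat mice, and Aldh3a2 with Cyp4a14 had r = 0.80 on the low-fat and -0.15 on the high-fat diet, a difference of -0.95 (n = 10 per diet, permutation p = 0.167, adjusted 0.451).

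**Figure D4:**
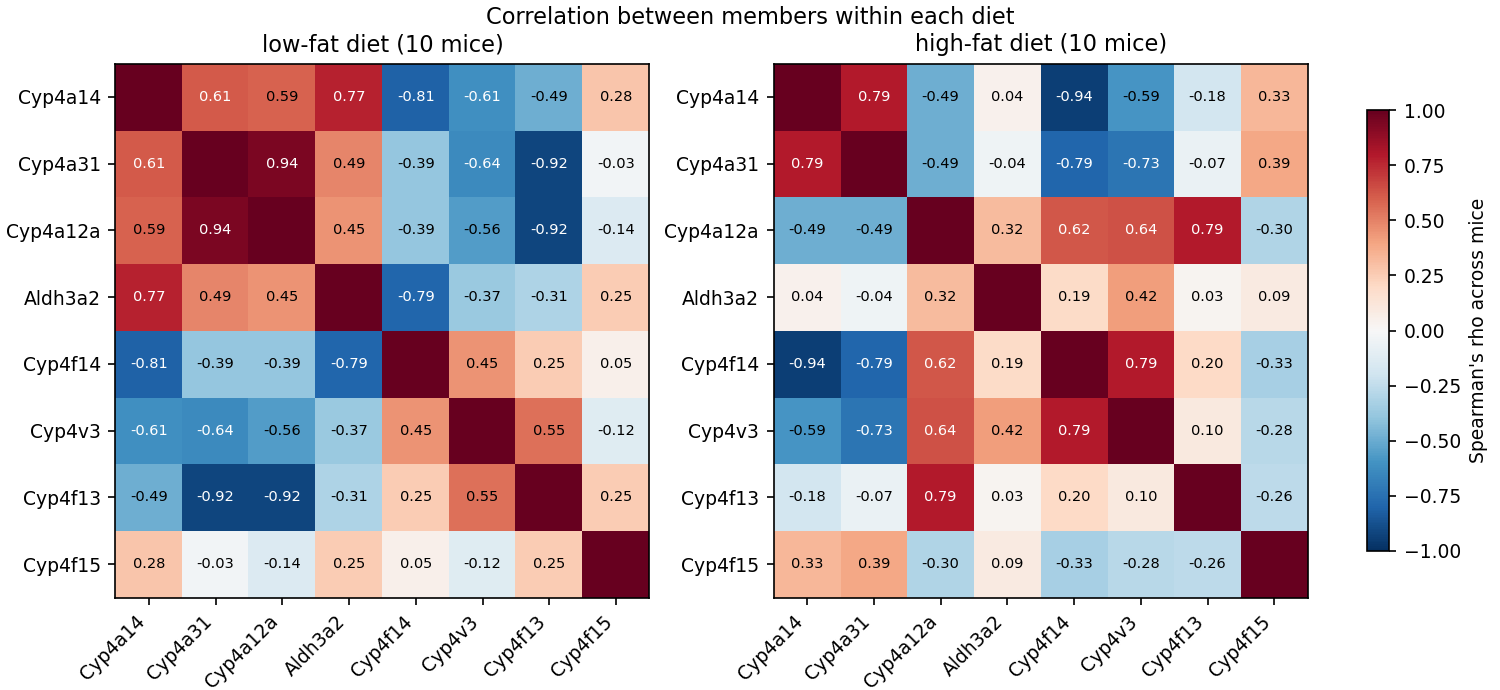
Correlation across mice of each pair of the 8 genes within the low-fat and the high-fat diet (colour and printed value, Spearman's rho, 10 mice each). Cyp4a14 with Cyp4f14 is at -0.81 and -0.94. Cyp4a12a has opposite signs in the 2 diets with Cyp4a31 (higher probe set only) and, as deposited but not after median centring, with Cyp4f13.

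Likeness over mice was then described by the mean of the 2 within-diet rho values, 10 mice each, over 18105 genes. Most like Cyp4a14 were Alpl, tissue alkaline phosphatase (rho 0.83 low-fat and 0.9 high-fat, mean 0.87), Acacb, acetyl-CoA carboxylase 2 (0.77 and 0.93, mean 0.85), and Myom1, a myofibril protein (0.85 and 0.82, mean 0.84). Most like Aldh3a2 were Acot2, a mitochondrial acyl-CoA thioesterase (0.92 and 0.79, mean 0.85), Abcb4, the bile phospholipid transporter (0.87 and 0.77, mean 0.82), and Mlycd, malonyl-CoA decarboxylase (0.82 and 0.79, mean 0.81).

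Aldh3a2 covaried with genes of the peroxisomal list, not all of which are steps that follow it in the pathway. Of these 14 genes, 8 (57.1%) had a mean rho above 0.5 with Aldh3a2, beside 2.26% of all genes, and their median was 0.51. Pex11a, which drives peroxisome division, stood at 0.88 low-fat and 0.7 high-fat, Ehhadh, the L-bifunctional enzyme of peroxisomal beta-oxidation, at 0.96 and 0.54, and Hsd17b4, the D-bifunctional enzyme, at 0.6 and 0.83. Acox2, the branched-chain acyl-CoA oxidase, was the 1 gene under -0.5, at -0.54 and -0.5. After median centring the count was 9 of 14 (64.3%) beside 28.2% of all genes, and after quantile normalisation 2 of 7 (28.6%) beside 4.77%. The other Cyp4 genes had 0 of 6 above 0.5 as deposited and after quantile normalisation. After centring they had 4 of 6 (66.7%), so the pattern was not particular to the peroxisomal list there. The peroxisomal genes named here, and the genes of the next paragraph, were named after their values were seen.

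Of the 20 PPAR-alpha list genes, 7 (35.0%) exceeded 0.5 with Aldh3a2, beside 2.26% of all genes, Plin2, a lipid droplet coat protein, at 0.79 and 0.71 among them. After median centring it was 9 of 20 (45.0%) beside 28.2%, and after quantile normalisation 3 of 15 beside 4.77%. With Cyp4a14, 5 of 20 exceeded 0.5, beside 3.14% of all genes; Cidec, a lipid droplet protein, stood at 0.76 and 0.87 and Acadm, the medium-chain acyl-CoA dehydrogenase, at 0.79 and 0.77. Cyp4f14 had the other sign with both, at -0.59 and -0.75 with Cidec and -0.79 and -0.66 with Acadm. With the electron and heme supply, Cyp4f14 had 4 of 10 above 0.5, beside 5.37% of all genes, and Cyp4a14 had 4 of 10 under -0.5, beside 7.83%. Fech, which inserts iron to form heme, was at 0.52 and 0.81 with Cyp4f14 and at -0.9 and -0.78 with Cyp4a14. After median centring Cyp4f14 had 2 of 10 (20.0%) above 0.5 beside 1.52%, and Cyp4a14 had 1 of 10 under -0.5 beside 1.17%. After quantile normalisation Cyp4f14 had 0 of 6 above 0.5 in that list beside 7.30% of all genes, and in the PPAR-alpha list 2 of 15 above 0.5 and 0 under -0.5, so neither pattern of Cyp4f14 was kept there. Genes within a list share libraries, and no p is given for these counts.

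**Figure D5:**
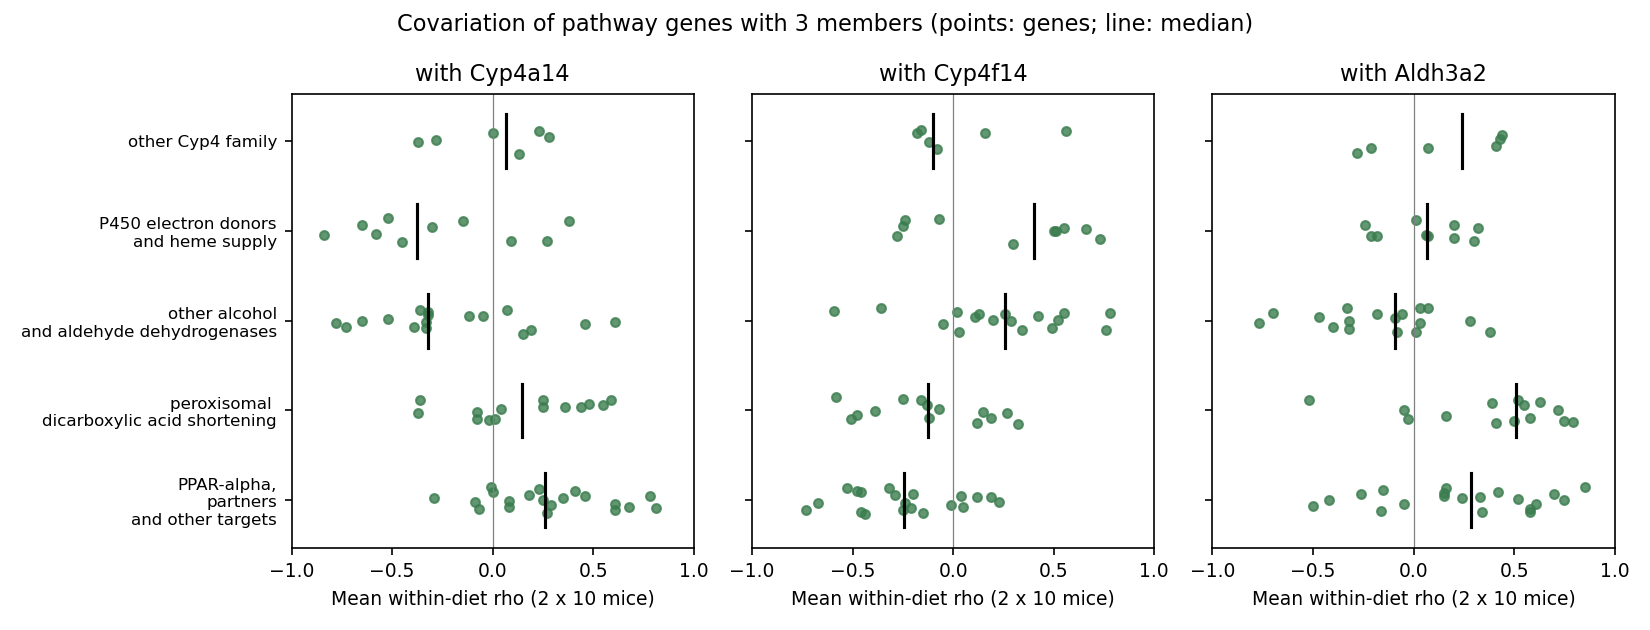
Mean of the within-diet Spearman correlations (10 low-fat and 10 high-fat mice) of Cyp4a14, Cyp4f14 and Aldh3a2 with the genes of each list (horizontal axis, rho), 1 point per gene and a line at the median. The peroxisomal genes lie mostly to the positive side for Aldh3a2, with a median of 0.51.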

How the data were processed

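Liver RNA of 20 mice, 10 per diet, was measured on Affymetrix arrays, per the labels. The authors deposited a score per probe set, in log2-like units; its summarisation and normalisation are not given in the sources used here. Platform annotation gave 1 symbol for 34945 of 45037 probe sets, several for 932 and none for 9160; 64 controls were left out, and 0 columns belonged to other samples. High-fat was compared with low-fat by limma 3.58.1 (R 4.3.3; lmFit and eBayes, no covariate) over all probe sets, with Benjamini-Hochberg adjustment at 0.05, and checked on simulated data. Intervals are noncentral t. Correlations were taken within a diet (Python 3.11.15, scipy 1.17.1), with 100000 resamples, two-sided. No 2 arrays were identical (0 of 190 pairs); the labels call replicates biological. The precision is limited by the number of arrays.

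The members and lists were chosen with earlier results of these data known. Named were all member probe sets, per list the genes past the threshold and the 1 with the smallest adjusted p, and the 3 genes most like Cyp4a14 and Aldh3a2; for Cyp4a10 the last rule could not be applied. Alternatives covered scaling, variance model, weights, block, test, filters, poly-A covariate (27 control probe sets), threshold and single mice. Differences of r between diets, correlations without 2 low-fat mice and correlations after rescaling were added after seeing the data.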

Additional observations from a re-analysis of the deposited data

Results flagged for a closer look

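The correlation of Cyp4a12a with Cyp4a31, taken by its higher probe set, differed between the diets. It was 0.92 on the low-fat and -0.56 on the high-fat diet, a difference of -1.48 (n = 10 per diet, permutation of diet labels p = 0.00185, adjusted over 28 pairs 0.0297). With each mouse left out in turn the difference ran from -1.67 to -1.04, the last without high-fat replicate 3, where r on the high-fat diet was -0.12. After median centring it was -1.46 (n = 10 per diet, permutation p = 0.00364, adjusted 0.102). The lower Cyp4a31 probe set was not tested for this difference.

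The correlation of Cyp4a12a with Cyp4f13 went from -0.76 on the low-fat to 0.80 on the high-fat diet, a difference of 1.57 (n = 10 per diet, permutation p = 0.00212, adjusted 0.0297). With each mouse left out it ran from 1.49 to 1.63. After median centring the values were 0.69 and 0.20, and the difference turned to -0.49 (n = 10 per diet, permutation p = 0.313, adjusted 0.506). The array medians that centring subtracts spanned more than the Cyp4f13 scores, so centring cannot decide whether the signs differ. The part of array scaling in this difference was not tested further. Of the 28 pairs, 2 passed. No mouse stood apart by Dixon's test in any of 20 groups of 10 scores.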

How the results depend on the processing

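The count of 0 member probe sets past the threshold, higher or lower, held under each alternative run except median centring, which called 3 lower: Cyp4f13, Cyp4f14 and Cyp4f15. Centring moved the median difference of all probe sets from 0.04 to -1.29 and quantile normalisation to -0.41. The array medians that centring subtracts were mostly higher in the high-fat arrays, so this rescaling is tied to diet. Calls over all probe sets, 501 higher and 542 lower as deposited, became 396 and 38220 under centring and 380 and 3784 under quantile normalisation, which left out 2676 probe sets. Left out were probe sets that then had the same value in every array, among them Cyp4a14, Cyp4a12a and the higher probe set of Cyp4v3. The count of 0 under quantile normalisation therefore rests on no test of those named. Reversed were Cyp4f13 (-0.79 under quantile normalisation, -1.04 under centring), Cyp4f15 (-0.99 under centring) and the higher probe set of Cyp4v3 (-0.8 under centring). For these probe sets the array medians that centring subtracts spanned more than the scores within each diet. Centring therefore cannot decide their direction. Of the other lists, 39 genes were called lower under centring and 3 under quantile normalisation (Cyb5b, Abcd2 and Plin2), and 1 higher, Slc27a2, in the unmoderated model and 1, also Slc27a2, in the rank sum test. The causes were not tested.

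Leaving out 1 mouse at a time gave 0 to 0 member probe sets in each direction, and 0 to 1 higher genes of the other lists (1, Nr1i3, without high-fat replicate 3). Cyp4f13 ran from 1.06 to 1.42, Cyp4f14 from -1.47 to -1.14 and Cyp4f15 from 0.91 to 1.51. Members nearer 0 moved by more of their value: Cyp4a14 from -0.49 to -0.08, Cyp4a12a from -0.68 to -0.28, Cyp4a31 from 0.22 to 0.64 and 0.07 to 0.43, and Aldh3a2 from -0.63 to -0.21, with no change of sign. Correlations past the threshold numbered 1 by r, 4 by rank correlation, 11 of 56 by r under centring (3 by rank correlation) and 0 of 12 under quantile normalisation, which left 4 genes with enough different values.

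The labels do not say whether replicate numbers pair the mice. Same-numbered mice correlated at -0.15 to 0.23, with 2 of 10 above 0.1, and 2 of 10 low-fat mice correlated best with their own number. Such correlations cannot exclude shared handling by number. With the replicate block 0 member probe sets passed, and 300 probe sets were called higher and 238 lower.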

Other observations

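Slc27a2, the very long-chain acyl-CoA synthetase, had a standardised difference of 2.74 (interval 1.47 to 3.97, n = 10 per diet) with a limma p of 0.041 and an adjusted p of 0.303. Its adjusted p was 0.00376 in the unmoderated model and 0.00668 by the exact rank sum test, and its difference was -1.31 under median centring. The pooled SD of its score was 5.16e-07, below the prior SD of 6.63e-06 that limma estimated.

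In 2 genes of the lists a probe set other than the one with the highest mean passed. Of 3 Cyb5b probe sets (a cytochrome b5 of the outer mitochondrial membrane), 1 passed at 2.56 (limma adjusted p = 0.00404), while the others were at -0.60 and 0.36. All 5 Aldh2 probe sets were lower on the high-fat diet, and 1 passed at -2.16 (adjusted p = 0.0127); the others were at -0.69, -0.46, -0.17 and -1.45. Of the markers of other cell types, Cela1 (pancreatic acinar) was at 1.80 (adjusted p = 0.0349) and Mylpf (skeletal muscle) at -1.99 (adjusted p = 0.0273). Only 2 of 5 acinar markers were measured, both above the low-fat mean. Of the 5 muscle markers 2 were above and 3 below the low-fat mean, with a median of -0.08, so Mylpf does not stand for its list.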
